A study of Mus musculus with 18 samples.

Results

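Growth hormone pattern-dependent liver genes are described here in the livers of female mice given 1 of 4 chemicals or a control treatment for 13 weeks. The group holds 10 genes, Hsd3b5, Elovl3, Cyp7b1, Cyp2d9, Cyp4a12a, Bcl6, Hao2, Prom1, Cux2 and Nipal1, out of 18193 genes that the array annotation names. A probe set counted as a member when its annotation named exactly 1 of these symbols, and the probe set with the highest mean signal stood for its gene. This gave 16 probe sets, of which 15 passed the filter on low signal, and all 10 genes were among the 12169 genes tested.

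The pituitary releases growth hormone in separated pulses in male rodents and more continuously in females. Liver cells read this pattern through the growth hormone receptor, the kinase JAK2 and the transcription factor STAT5b. Pulses favour male-biased genes such as Cyp2d9 and Hsd3b5, continuous exposure favours female-biased genes such as Prom1 and the repressor Cux2, and the repressor Bcl6, itself male-biased, binds many of the DNA sites that STAT5 uses. Hsd3b5, Elovl3, Cyp7b1, Cyp2d9, Cyp4a12a and Bcl6 are treated below as male-biased in mouse liver, and Hao2, Prom1 and Cux2 as female-biased.

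All animals were female B6C3F1 mice, a hybrid used in rodent cancer bioassays, and each of the 6 groups held 3 animals with 1 array each. They were 5 weeks old when exposure began and 18 weeks old at the end. One group received 2,3-benzofuran by gavage at 240 mg/kg, in corn oil at 5 ml/kg, on 5 days per week, and its control received corn oil by gavage. The other 3 chemicals were mixed into feed on 7 days per week: 1,5-naphthalenediamine (NDA below) at 2000 ppm, N-(1-naphthyl)ethylenediamine dihydrochloride (NEDD) at 2000 ppm and the fungicide pentachloronitrobenzene (PCNB) at 8187 ppm. Their shared control was given rodent chow. Per the labels, 2,3-benzofuran and NDA are positive for liver cancer in mice, and NEDD and PCNB are negative. No animals or arrays of male mice are among the samples, so a gene's sex bias enters as background only.

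Values are log2 signals as deposited, so a difference of 1 is a doubling. Values of animals follow the order of their label numbers. Every pair of arrays correlated with r of at least 0.979, and the array medians ran from 4.25 to 4.35. The median of all tested genes was higher with each chemical than in its control on this scale, by 0.175 for NDA, 0.109 for 2,3-benzofuran, 0.155 for NEDD and 0.148 for PCNB. Between corn oil and feed controls it differed by 0.0387. Changes are therefore given relative to that median, as log2 change ± standard error, whereas calls rest on the deposited scale at a limma adjusted p under 0.05 over all genes. The number of arrays, 3 per group, limits the precision. Levels of different probe sets are not compared. Defining hepatocyte markers were high in every animal, with a mean log2 signal of 12.8 to 13.1 over 10 markers. In whole liver, fewer cells of a type and less RNA per cell cannot be told apart.

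Promoter sequences were at hand for 7 of the members, from RefSeq on mouse build GRCm38.p6. Elovl3, Cyp7b1 and Cyp4a12a had no entry. The 250 bases upstream of the annotated start are printed for Cyp2d9, Hao2 and Bcl6. Cyp2d9 is the male-biased gene that was called higher with 3 chemicals, although the call with NEDD was lost under several settings. Hao2 is the member that fell most with 2,3-benzofuran. For Bcl6 the inner of its start sites is shown, where the STAT5-type motif TTCNNNGAA was found. That motif reads the same on both strands and occurs in 2726 of 32851 promoters of 300 bases (8.3%). Capitals mark its matches.
Cyp2d9 (chr15:82452127-82452376, plus strand): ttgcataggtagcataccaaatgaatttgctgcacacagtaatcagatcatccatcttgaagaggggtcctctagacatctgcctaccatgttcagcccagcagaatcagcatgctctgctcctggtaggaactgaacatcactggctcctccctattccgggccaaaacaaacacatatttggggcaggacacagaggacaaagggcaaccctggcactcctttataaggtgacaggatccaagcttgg
Hao2 (chr3:98893231-98893480, minus strand): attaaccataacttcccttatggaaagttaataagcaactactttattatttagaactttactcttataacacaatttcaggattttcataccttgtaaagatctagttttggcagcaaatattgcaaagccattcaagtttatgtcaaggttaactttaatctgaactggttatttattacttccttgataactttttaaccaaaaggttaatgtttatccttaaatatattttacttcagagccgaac
Bcl6 (chr16:23981284-23981533, minus strand): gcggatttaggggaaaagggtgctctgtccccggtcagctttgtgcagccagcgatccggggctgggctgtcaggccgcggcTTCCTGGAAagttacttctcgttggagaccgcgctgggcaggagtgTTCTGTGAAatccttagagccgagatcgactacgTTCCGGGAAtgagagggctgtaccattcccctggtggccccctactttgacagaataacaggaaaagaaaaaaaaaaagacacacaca
The 3 matches in this Bcl6 window begin at positions -168, -122 and -88 relative to the start. The window of the outer Bcl6 start holds 1 match, TTCTCAGAA, and those of Cyp2d9, Hao2, Hsd3b5, Prom1, Cux2 and Nipal1 hold none. The printed Hao2 and Bcl6 windows lie inside the annotated intervals of their genes. A match is a string of letters and is no evidence of binding. A lack of matches says only that these letters are not in these windows.

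The first comparison sets 2,3-benzofuran against corn oil. In livers of mice given 2,3-benzofuran, 4 of the 6 male-biased members rose and 2 of the 3 female-biased members fell. Cyp4a12a was at least 12.1-fold higher, and Elovl3, Cyp2d9 and Cyp7b1 rose by 7.50-, 7.24- and 1.63-fold. Hao2 and Prom1 fell, by 8.29- and 4.50-fold. Of the 10 members 6 were called, beside 32.3% of all genes. By direction, 4 members were higher, beside 24.8% of genes, and 2 lower, beside 7.58% of genes. Arrays of the groups did not overlap for 7 members, beside 49.2% of genes. The median relative change over the members was 0.17, against 0 over all genes by construction. Cyp4a12a passed the filter on low signal through the 2,3-benzofuran arrays alone, so its place in these counts was set by the filter.

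Mice given NDA were compared with feed controls. Hsd3b5 and Cux2 fell, and Cyp2d9 and Nipal1 rose, whereas Cyp4a12a was called higher at signals under the array medians. There were 5 members called, beside 39.9% of all genes, 3 of them higher and 2 lower. Genes called higher made up 31.5% and genes called lower 8.41% of all tested. Arrays of the groups did not overlap for 4 members, beside 46.5% of genes. The members' share of calls is close to the background, and their median relative change was 0.10.

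In mice given NEDD, compared with feed controls, the male-biased genes Hsd3b5, Elovl3 and Cyp7b1 fell and Cyp2d9 rose. Prom1 and Nipal1 were higher as well. Altogether 6 members were called, beside 29.1% of all genes, with 3 higher beside 24.7% and 3 lower beside 4.37%. Arrays did not overlap for 4 members, beside 38.2% of genes, and the median relative change was -0.13. This count fell to 1 with the RNA integrity number in the model and to 2 with an index of clock genes in it. The RNA integrity number was 7.7, 8.1 and 7.7 in NEDD livers, against 8.8, 8.8 and 9.1 in feed control livers. The index was 2.19, 2.28 and 2.46, against -1.36, -1.12 and 0.56. As the groups overlap in neither, these fits cannot tell a change with NEDD from a change with either measure. The 5 arrays of highest 18S ribosomal RNA signal include NEDD animals 12 and 14. A fit without them leaves NEDD animal 15 alone, so no count is given for it.

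In mice given PCNB, also compared with feed controls, Cyp7b1 and Nipal1 rose and Hsd3b5 and Cux2 fell. These were 4 called members, beside 18.5% of all genes, 2 higher beside 14.6% and 2 lower beside 3.87%. Arrays did not overlap for 4 members, beside 38.2% of genes, and the median relative change was 0.05. Without animal 16 or animal 18 of the PCNB group, or without animal 28 of the feed control group, the count was 2.

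The control groups were also compared with each other. Nipal1 was 2.80-fold higher in corn oil controls and was 1 of 15 genes called over the whole array, or 0.123%. Arrays did not overlap for 3 members, beside 11.1% of genes, and the median relative change was -0.28. The other 9 members were not called, and the widest of their changes were those of Elovl3, Hsd3b5, Hao2 and Prom1. Elovl3 differed by -1.71 ± 0.370 (adjusted p 0.0922), Hsd3b5 by -1.60 ± 0.444 (adjusted p 0.208), Hao2 by 1.51 ± 0.477 (adjusted p 0.26) and Prom1 by 1.49 ± 0.517 (adjusted p 0.317). Elovl3 was called without feed control animal 29 (adjusted p 0.0455), and Prom1 without feed control animal 27 (adjusted p 0.0292). These groups differ both in gavage and in corn oil, and what each contributes cannot be told apart.

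**Figure D1:**
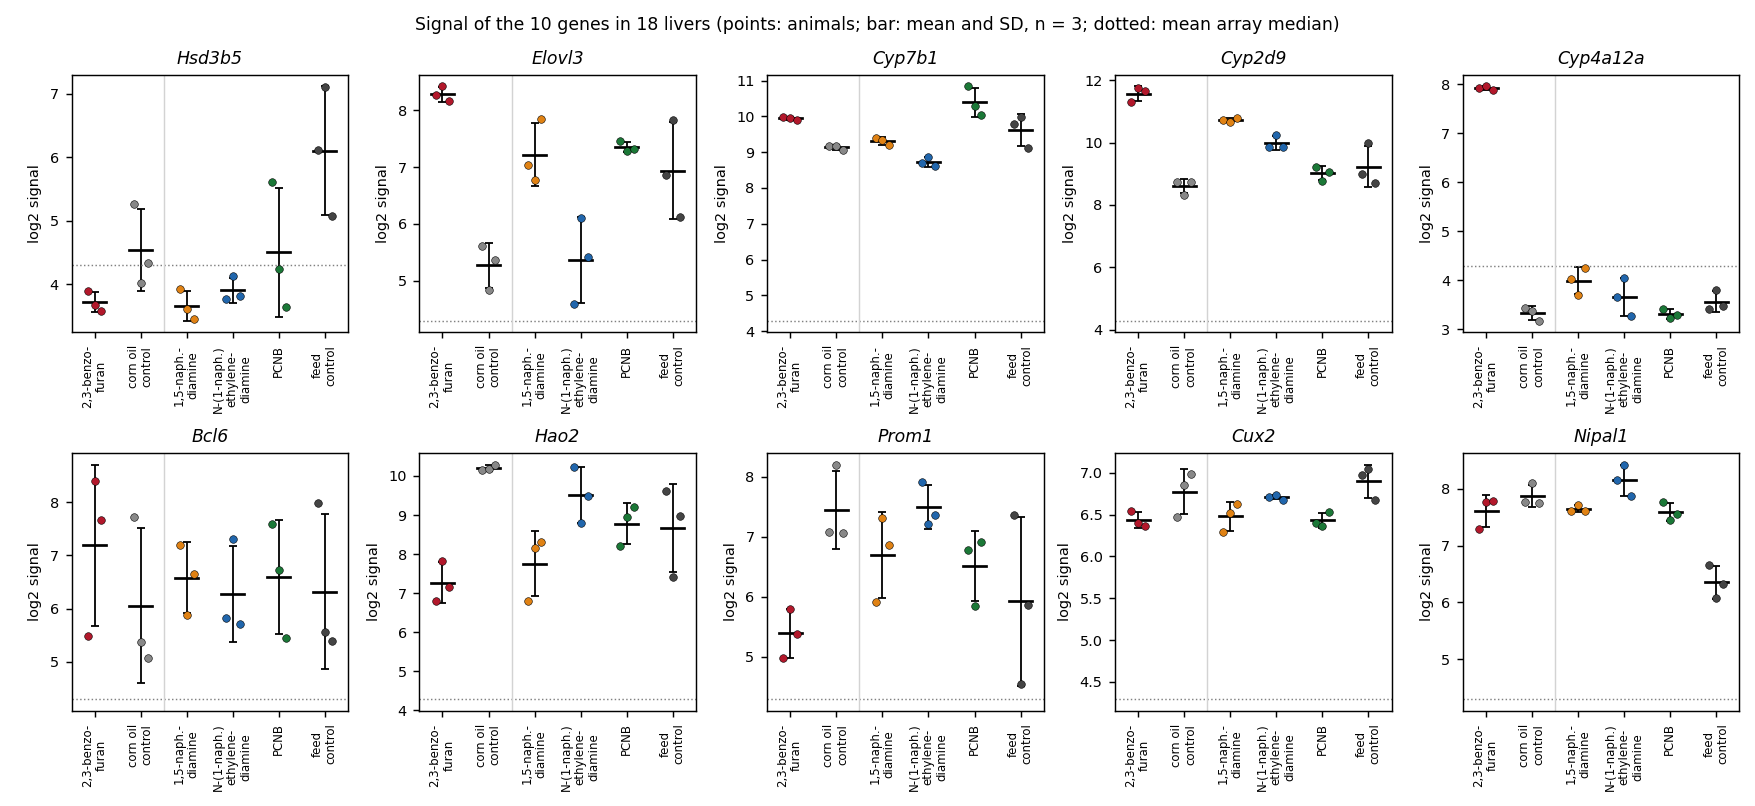
Log2 signal of each of the 10 genes, one panel per gene, with 1 point per animal and a bar at the group mean, for the 6 groups of 3 mice. The 2,3-benzofuran animals stand apart in the Cyp4a12a panel, between 7.89 and 7.96, and all other animals lie between 3.18 and 4.24.

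Cyp4a12a, a fatty acid omega-hydroxylase gene (chr4:115299046-115332815), had the widest spread of group means. Signals were 7.92, 7.96 and 7.89 in 2,3-benzofuran livers, against 3.44, 3.38 and 3.18 in corn oil livers. Every one of the 15 arrays outside the 2,3-benzofuran group lay under its own array median, so the gene was not shown to be above background there. With the corn oil group taken at its array medians, Cyp4a12a was at least 12.1-fold higher with 2,3-benzofuran on the deposited scale (limma, adjusted p 3.17e-12). The gene reached the tests through the 2,3-benzofuran arrays alone, so this p describes a gene that had to differ. A near-identical neighbour, Cyp4a12b, was not analysed here, and the probe set may read both. NDA livers gave 4.03, 3.69 and 4.24, against 3.42, 3.80 and 3.47 in feed control livers, and the call there (adjusted p 0.0491) was lost with arrays centred on their median (adjusted p 0.467) and in 14 of the fits that left out 1 array, with adjusted p up to 0.195. No fold is given, as both groups lay under the array medians. NEDD livers gave 3.65, 4.04 and 3.27, and PCNB livers 3.41, 3.23 and 3.29.

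Cyp2d9 encodes a steroid 16-alpha-hydroxylase of male mouse liver (chr15:82452377-82456827) and belongs to a cluster of similar genes whose reads the array may not fully separate. Its signal was 11.31, 11.75 and 11.65 in 2,3-benzofuran livers, against 8.74, 8.33 and 8.74 in corn oil livers. All 3 treated animals lay far above the controls, and the relative change was 2.86 ± 0.228 (limma, adjusted p 7.43e-08). In NDA livers it was 10.73, 10.66 and 10.79, against 9.0, 9.97 and 8.70 in feed control livers. These groups did not overlap either, and Cyp2d9 rose by 1.33 ± 0.228, or 2.51-fold (adjusted p 0.000166). NEDD livers had 9.85, 10.24 and 9.86, which overlap with the highest feed control. The change with NEDD was 0.60 ± 0.228 (adjusted p 0.0209). The call was lost under 7 of 13 other settings. They include quantile normalization (adjusted p 0.0735), centring (adjusted p 0.0864) and the fit with the RNA integrity number. The call was also lost without NEDD animal 14 (adjusted p 0.0747) or feed control animal 27 (adjusted p 0.0683) or 29 (adjusted p 0.129). PCNB livers had 9.22, 8.77 and 9.06, within the range of the feed controls.

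Elovl3, an elongase of very long chain fatty acids (chr19:46131897-46135694), rose in 2,3-benzofuran livers to 8.27, 8.42 and 8.16, against 5.61, 4.83 and 5.36 in corn oil livers. The groups were far apart, with a change of 2.91 ± 0.370 (limma, adjusted p 1.96e-05). Against the feed controls in place of corn oil, the same animals differed by 1.35 on the deposited scale (adjusted p 0.0077). NEDD livers had 4.59, 6.10 and 5.41, against 6.87, 7.82 and 6.13 in feed control livers, and the groups did not overlap. The fall with NEDD was -1.73 ± 0.370, or 3.31-fold (adjusted p 0.00615). It was not called with the RNA integrity number (adjusted p 0.147) or the clock index (adjusted p 0.145) in the model. NDA livers, at 7.04, 6.78 and 7.84, and PCNB livers, at 7.46, 7.29 and 7.33, overlapped with the feed controls.

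Cyp7b1 encodes the oxysterol 7-alpha-hydroxylase of the alternative bile acid pathway (chr3:18071944-18243890). Signals were 9.99, 9.95 and 9.90 in 2,3-benzofuran livers, against 9.16, 9.18 and 9.06 in corn oil livers. They did not overlap, and the rise was 0.71 ± 0.182 (limma, adjusted p 0.00297). The call was lost with the clock index in the model (adjusted p 0.126) and against feed controls (adjusted p 0.163). PCNB livers had the highest signals of any group, 10.84, 10.29 and 10.05, and NEDD livers the lowest, 8.71, 8.87 and 8.61. The feed control livers lay between, at 9.78, 9.98 and 9.13. The rise with PCNB was 0.62 ± 0.182 (adjusted p 0.0124), and the fall with NEDD was -1.05 ± 0.182 (adjusted p 0.00281). The NEDD call was lost under 3 of 14 other settings, among them the fit with the RNA integrity number. NDA livers had 9.40, 9.33 and 9.19, inside the feed control range, and were not called (adjusted p 0.164). They were called lower without feed control animal 29 (adjusted p 0.0152), with quantile normalization (adjusted p 0.0183), with centring (adjusted p 0.0124) and with array weights (adjusted p 0.0449). A second probe set that passed the filter made the same calls, and another did not pass it. The PCNB call was lost without PCNB animal 16 (adjusted p 0.069) or feed control animal 29 (adjusted p 0.0663).

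Hsd3b5, a 3-keto-steroid reductase of male mouse liver (chr3:98618636-98645534), was brightest in the feed controls. Signals were 3.92, 3.61 and 3.46 in NDA livers, 3.76, 4.13 and 3.82 in NEDD livers and 5.62, 4.25 and 3.64 in PCNB livers, against 6.12, 7.11 and 5.08 in feed control livers. All NDA and NEDD arrays lay under their array medians. With those medians as the floor, Hsd3b5 was at least 3.56-fold lower with NDA (limma, adjusted p 0.000645) and at least 3.49-fold lower with NEDD (adjusted p 0.00275). With the clock index in the model the NEDD change was -0.81 on the deposited scale and was not called (adjusted p 0.168), and it was not called with the RNA integrity number either (adjusted p 0.0987). With PCNB, 1 animal overlapped with the controls, and the change was -1.75 ± 0.444 (adjusted p 0.0228). That call was lost without feed control animal 28 (adjusted p 0.074) and without PCNB animal 18 (adjusted p 0.0737) or 20 (adjusted p 0.0872). The 2,3-benzofuran livers, at 3.89, 3.67 and 3.58, all lay under the corn oil livers, at 5.26, 4.01 and 4.34, without a call (-0.93 ± 0.444, adjusted p 0.164). Set against the feed controls, the same animals were lower by a called -2.39 (adjusted p 0.000523).

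**Figure D2:**
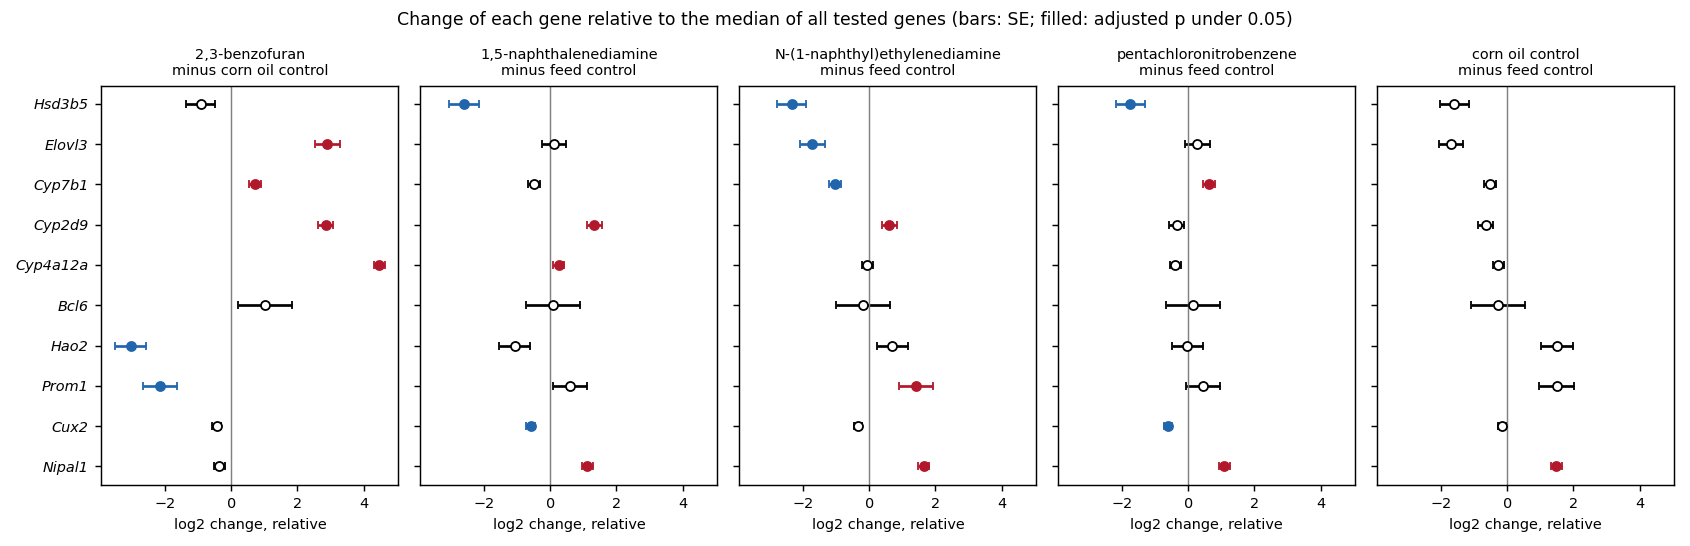
Log2 change of each of the 10 genes minus the median over the tested genes (x axis), in 5 panels for the 4 chemicals against their own controls and for corn oil against feed control. Bars are standard errors, and filled points, red for higher and blue for lower, had a limma adjusted p under 0.05. Changes with 2,3-benzofuran include -3.05 for Hao2 and 2.91 for Elovl3, and the point of Cyp4a12a marks a measured difference from a group under the array medians.

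Hao2, a peroxisomal 2-hydroxy acid oxidase (chr3:98874519-98895376), fell in 2,3-benzofuran livers to 6.80, 7.83 and 7.16, against 10.15, 10.18 and 10.29 in corn oil livers. The corn oil animals were nearly alike and all treated animals lay far below them. The fall was -3.05 ± 0.477 (limma, adjusted p 0.00027). Set against the feed controls in place of corn oil, the same animals were lower by only -1.40 on the deposited scale. Animal 8 of the 2,3-benzofuran group, at 7.83, then lay above feed control animal 28, at 7.41. Animals 6 and 10 of the 2,3-benzofuran group are among the 5 arrays of highest 18S signal, so no p-value is given without those arrays. NDA livers had 6.79, 8.16 and 8.31, against 9.60, 7.41 and 8.97 in feed control livers. These overlapped through feed control animal 28, and the change of -1.09 ± 0.477 was not called (adjusted p 0.132). Without that animal it was -1.54 on the deposited scale and was called (adjusted p 0.0113). NEDD livers had 10.24, 8.81 and 9.49, and PCNB livers 8.20, 8.95 and 9.20, both overlapping with the feed controls.

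Prom1 encodes the membrane protein prominin 1 (chr5:43993621-44102047), which is also a marker of bile duct and progenitor cells. Signals were 4.98, 5.80 and 5.38 in 2,3-benzofuran livers, against 7.08, 8.20 and 7.06 in corn oil livers. The groups did not overlap, and the fall was -2.17 ± 0.517 (limma, adjusted p 0.00621). Against the feed controls, which had 7.36, 4.55 and 5.86, the change was -0.53 and was not called (adjusted p 0.413). The fall was also not called with the clock index in the model (adjusted p 0.105). NEDD livers had 7.90, 7.21 and 7.36, overlapping with feed control animal 27, and the change was 1.41 ± 0.517 (adjusted p 0.0313). Without feed control animal 28 that change was 0.88 on the deposited scale and was not called (adjusted p 0.155). It was not called either without NEDD animal 12 (adjusted p 0.118) or 15 (adjusted p 0.0572) or feed control animal 29 (adjusted p 0.0899). NDA livers, at 5.92, 7.31 and 6.86, and PCNB livers, at 6.77, 5.85 and 6.92, were called in neither comparison, although both were called without feed control animal 27 (adjusted p 0.0166 and 0.0487).

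Markers of bile duct cells were followed beside Prom1. Of 7 cholangiocyte markers measured, 4 lay under the array median on every array, Krt7, Cftr, Cldn7 and Muc1. The mean signal over the 7 was 3.87 to 3.93 in 2,3-benzofuran livers, against 4.06 to 4.10 in corn oil livers. These means lay under every array median (4.25 to 4.35). None of the 3 tested markers was called with 2,3-benzofuran, and the median relative change over them was -0.29. With NEDD, where Prom1 was called higher, 1 of the 3 was lower (median -0.58). With NDA 1 was lower (median -0.45), and with PCNB none was called (median -0.31). The part of these markers in the changes of Prom1 was not tested.

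Nipal1, a NIPA-like magnesium transporter gene (chr5:72647796-72671078), was low in the feed controls alone. Feed control livers had 6.66, 6.08 and 6.32, and all 15 other animals lay between 7.29 and 8.43. Against them Nipal1 rose by 1.12 ± 0.168 with NDA (limma, adjusted p 4.77e-05), by 1.64 ± 0.168 with NEDD (adjusted p 1.78e-05) and by 1.09 ± 0.168 with PCNB (adjusted p 0.000207). The corn oil controls, at 7.78, 8.11 and 7.76, were higher by 1.49 ± 0.168 as well (adjusted p 0.000452). With both control groups pooled, the rises with NDA (adjusted p 0.207) and PCNB (adjusted p 0.31) were not called. The 2,3-benzofuran livers, at 7.29, 7.77 and 7.79, overlapped with the corn oil livers (adjusted p 0.241). A second probe set made the same calls in all 5 comparisons.

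The probe sets of Cux2, a homeobox repressor of male-biased genes in female liver (chr5:121857962-122050415), did not move together. The brightest of its 3 probe sets gave 6.29, 6.53 and 6.62 in NDA livers, 6.71, 6.73 and 6.68 in NEDD livers and 6.40, 6.36 and 6.54 in PCNB livers, against 6.98, 7.05 and 6.67 in feed control livers. By this probe set Cux2 was lower by -0.59 ± 0.133 with NDA (limma, adjusted p 0.019) and by -0.61 ± 0.133 with PCNB (adjusted p 0.0255). The NDA and PCNB animals all lay under the controls. The NDA call was lost without feed control animal 27 (adjusted p 0.0552) or 28 (adjusted p 0.0677) or NDA animal 2 (adjusted p 0.0897). The PCNB call was lost without feed control animal 27 (adjusted p 0.0523) or 28 (adjusted p 0.0634) or PCNB animal 16 (adjusted p 0.0838) or 18 (adjusted p 0.0806). Another probe set, 1447500_at, gave 4.87, 4.74 and 4.05 in NDA livers, 5.70, 6.35 and 6.98 in NEDD livers and 6.67, 5.21 and 5.69 in PCNB livers, against 4.81, 4.50 and 4.23 in feed control livers. Tested among all 20712 probe sets, it was higher by 1.71 ± 0.317 with NEDD (adjusted p 0.0019) and by 1.20 ± 0.317 with PCNB (adjusted p 0.0155). The remaining probe set, 1450181_at, was higher by 1.06 ± 0.248 with NEDD (adjusted p 0.0043).

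The direction of Cux2 with NEDD and PCNB therefore depends on the probe set that is read. Over the 18 arrays the signals of 1447500_at and 1450181_at correlated with r = 0.898, whereas the brightest probe set correlated with them with r = -0.0732 and r = -0.00159. These values describe the arrays, which share group means, and carry no test. In 2,3-benzofuran livers the brightest probe set gave 6.54, 6.40 and 6.37, against 6.47, 6.86 and 6.99 in corn oil livers. The groups overlapped, and the change of -0.45 ± 0.133 was not called (adjusted p 0.0595). It was called without corn oil animal 22 (adjusted p 0.0108), without feed control animal 29 (adjusted p 0.0392) and under 5 other settings, with adjusted p down to 0.00435 with centring. Probe set 1447500_at gave 5.18, 5.19 and 5.45 in 2,3-benzofuran livers, against 5.82, 5.79 and 5.78 in corn oil livers, without a call either (-0.62 ± 0.317, adjusted p 0.229).

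**Figure D3:**
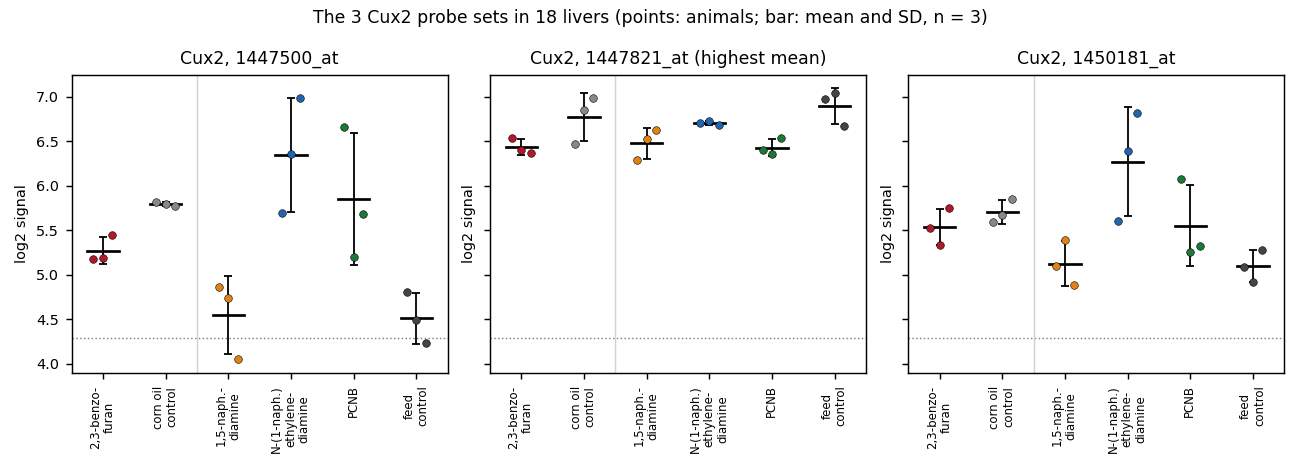
Log2 signal of the 3 Cux2 probe sets, one panel each, with 1 point per animal. Bars mark the mean and SD, and the dotted line the median signal of the arrays. The feed control animals lie between 6.67 and 7.05 in the middle panel, the brightest probe set, and between 4.23 and 4.81 in the panel of 1447500_at, where the NEDD animals lie between 5.70 and 6.98.

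Bcl6 (chr16:23965050-23988866) varied more between animals of 1 group than between groups. Signals were 5.48, 8.41 and 7.68 in 2,3-benzofuran livers, against 7.73, 5.36 and 5.08 in corn oil livers. In the feed groups they were 7.20, 5.87 and 6.65 with NDA, 5.81, 7.31 and 5.70 with NEDD and 7.59, 6.72 and 5.45 with PCNB, against 8.00, 5.56 and 5.39 in feed controls. Each group thus held high and low animals, and all groups overlapped. The pooled standard deviation within groups was 1.22, whereas group means spanned 1.13. Bcl6 was called in none of the 5 comparisons by limma, none had an unadjusted p under 0.05, and the widest change, with 2,3-benzofuran, had an interval of -0.69 to 2.74. Its other probe set was highest in the same animal in each of the 6 groups, and was not called either.

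Some members varied together between animals of the same group. As a description over 18 deviations from the group means, Hsd3b5 and Cyp7b1 correlated with r = 0.887, Elovl3 and Cyp2d9 with r = 0.78, and Hao2 and Prom1 with r = 0.754. Hsd3b5 and Hao2 ran opposite, with r = -0.606. Feed control animal 28 weighs on these values. It had the highest signal of the feed controls for Hsd3b5, Elovl3, Cyp7b1, Cyp2d9 and Cyp4a12a, and the lowest for Hao2, Prom1 and Nipal1. Without it the same correlations, over 17 arrays, were 0.851, 0.655, 0.594 and -0.409. Cyp2d9 and Hao2 correlated with r = -0.53 with it and r = -0.0699 without it.

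**Figure D4:**
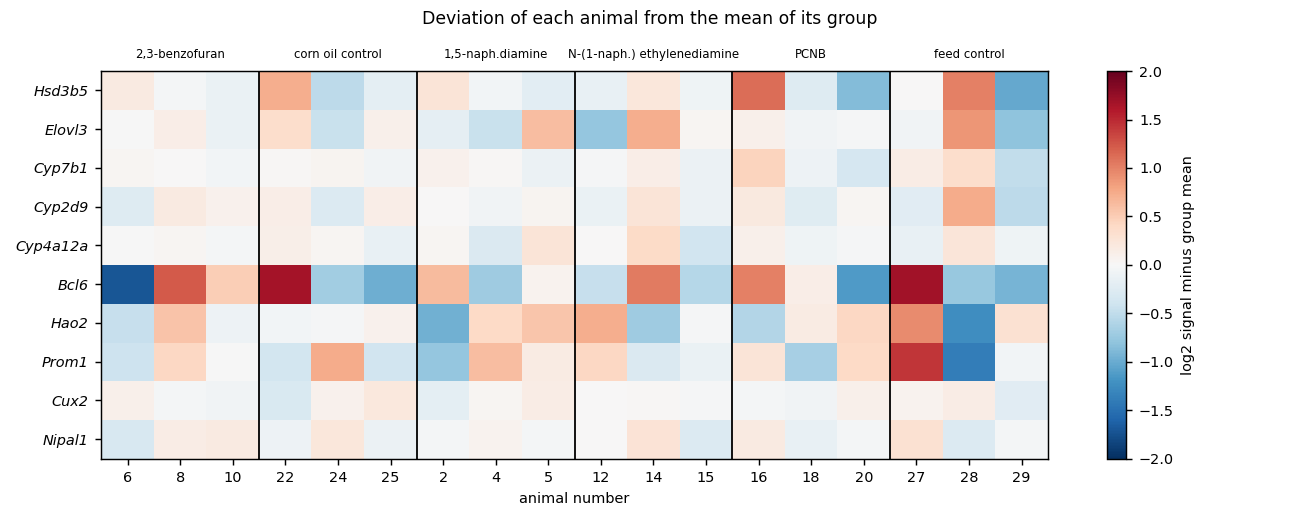
Heat map of each animal's log2 signal minus the mean of its group, with genes in rows and the 18 animals in columns by group (red above, blue below the group mean). Feed control animal 28 is red for Hsd3b5, Elovl3, Cyp7b1 and Cyp2d9 and blue for Hao2 and Prom1, and Bcl6 has deep red and blue animals in several groups.

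The members' changes were compared between chemicals in 6 pairs. Of 60 member tests 25 were called, with p-values adjusted over all genes within each pair. NDA and NEDD, both naphthalene amines, were given at the same dose in feed and for the same time. Elovl3 was higher with NDA than with NEDD by 1.85 ± 0.370 (limma, adjusted p 0.00609), and Hao2 was lower by -1.76 ± 0.477 (adjusted p 0.0375). The Hao2 call was lost without NDA animal 2 (adjusted p 0.164) or NEDD animal 12 (adjusted p 0.132) or 15 (adjusted p 0.0944). Both calls were lost with the clock index in the model (adjusted p 0.255 for Elovl3 and 0.517 for Hao2). These were 2 called members, beside 5.47% of all genes, 1 higher beside 3.51% and 1 lower beside 1.96%. Arrays did not overlap for 6 members, beside 25.1% of genes. For the other 8 members no difference was called, with intervals of 0.20 to 0.96 for Cyp7b1, 0.27 to 1.22 for Cyp2d9 and -1.88 to 0.29 for Prom1. Such intervals leave room for differences of more than 1 log2 unit in Cyp2d9 and Prom1. Hsd3b5 lay under the array medians in both groups, so its difference has no size here.

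PCNB was fed at a higher concentration than NDA and NEDD, so the following differences set unequal doses side by side. Cyp2d9 was higher with NDA than with PCNB by 1.71 ± 0.228 (limma, adjusted p 0.000139), and Cyp7b1 lower by -1.09 ± 0.182 (adjusted p 0.00142). With Cyp4a12a, dim in both groups, 3 members were called, beside 4.03% of genes, 2 higher beside 2.2% and 1 lower beside 1.82%. Arrays did not overlap for 3 members, beside 23.9% of genes. NEDD differed from PCNB in 3 members, beside 2.69% of genes: Cyp7b1 was lower by -1.66 ± 0.182 (adjusted p 2.9e-05), Elovl3 lower by -1.99 ± 0.370 (adjusted p 0.00542) and Cyp2d9 higher by 0.97 ± 0.228 (adjusted p 0.0285). The Cyp2d9 call was lost when any 1 of the 6 arrays compared was left out (adjusted p 0.0511 to 0.119). It was also lost with the RNA integrity number (adjusted p 0.0787) or the clock index (adjusted p 0.127) in the model, as was that of Elovl3 (adjusted p 0.0607 and 0.312). Genes called higher were 1.06% and genes called lower 1.63% of all, and arrays did not overlap for 6 members, beside 26.3% of genes. The effect of 2,3-benzofuran was tested against that of each feed chemical, each effect being taken against its own control. Cyp4a12a counts among the members that follow, although it lay under the array medians outside the 2,3-benzofuran group. It passed the filter through that group alone, so its place in these counts was set by the filter. The effect differed from that of NDA in 5 members, beside 0.961% of genes, 4 of them higher beside 0.362% and 1 lower beside 0.6%. From that of NEDD it differed in 7, beside 5.59%, 4 of them higher beside 2.52% and 3 lower beside 3.07%. From that of PCNB it differed in 5, beside 2.89%, 3 of them higher beside 1.27% and 2 lower beside 1.63%. Elovl3, Cyp2d9, Cyp4a12a and Nipal1 differed in all 3 of these tests. Mean signals of Nipal1 were 7.62 with 2,3-benzofuran, 7.65 with NDA and 7.59 with PCNB, but 7.88 in corn oil and 6.36 in feed controls. With feed controls for all chemicals, its difference was -0.031 from NDA (adjusted p 0.968) and 0.024 from PCNB (adjusted p 0.961), neither called. From NEDD it was -0.54 and stayed called.

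Other sex-biased genes were taken from lists of textbook examples. These lists were chosen with earlier results of these data known, so they are no independent check on the members. Among 11 further male-biased genes tested, 3 were higher with 2,3-benzofuran, beside 24.8% of all genes, and 3 lower, beside 7.58%. Their median relative change was -0.49. Gstp1, a pi-class glutathione transferase, rose by 1.30 ± 0.0852 (limma, adjusted p 3.27e-09), and Slco1a1, an organic anion uptake transporter, fell by -3.29 ± 0.590 (adjusted p 0.000772). With NDA, 1 of the 11 was higher, beside 31.5% of all genes, and 6 were lower, beside 8.41%. Slco1a1 was at -4.29 ± 0.590 (adjusted p 0.000109) and the urinary protein gene Mup3 at -1.17 ± 0.163 (adjusted p 0.000293). With NEDD 1 was higher, beside 24.7% of all genes, and 1 lower, beside 4.37%. With PCNB 2 were higher, beside 14.6%, and 2 lower, beside 3.87%. Slco1a1 fell with all 4 chemicals and Gstp1 was called higher with all 4, although its relative change with NEDD was only 0.10.

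Of 15 female-biased genes outside the members that were tested, none was higher and 8 were lower with 2,3-benzofuran (median relative change -0.83, against 7.58% of all genes lower). Cyp3a44, a cytochrome P450, fell by -2.12 ± 0.274 (limma, adjusted p 5.8e-05), Slc22a26, an organic anion transporter, by -1.46 ± 0.180 (adjusted p 4.73e-05), and the sulfotransferase gene Sult2a2 by -3.66 ± 0.847 (adjusted p 0.00447). With NEDD 7 were higher, beside 24.7% of all genes, and 1 lower, beside 4.37% (median 0.46). With PCNB 6 were higher, beside 14.6%, and none lower (median 0.42). With NDA 3 were higher, beside 31.5%, and 3 lower, beside 8.41% (median -0.21). Fmo2, a flavin monooxygenase, was higher than in feed controls by 1.37 ± 0.211 with NEDD (adjusted p 0.000462). With NDA it was higher by 0.86 ± 0.211 (adjusted p 0.00141) and with PCNB by 0.66 ± 0.211 (adjusted p 0.0186). Its signal was low in the feed controls, at 6.90, 5.92 and 6.77, beside 7.36, 7.50 and 7.64 in corn oil controls. NDA livers had 7.52, 7.60 and 7.58, PCNB livers 7.52, 6.94 and 7.54, and NEDD livers 8.07, 7.74 and 8.34. Cyp3a16 was higher by 3.22 ± 0.758 with PCNB (adjusted p 0.00949). Between corn oil and feed controls no gene of either list was called, and 15 female-biased genes had a median change of 0.59.

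The signalling path of the hormone was followed next. Of 9 tested genes for the receptor and its partners, 3 were higher with 2,3-benzofuran, beside 24.8% of all genes, the signal transducer Stat5a at 0.66 ± 0.183 (limma, adjusted p 0.00454), the phosphatase gene Ptpn11 at 0.42 ± 0.102 (adjusted p 0.00102) and the adaptor gene Grb10 at 0.32 ± 0.121 (adjusted p 0.0121). Ghr, the receptor itself, was lower with NDA by -0.42 ± 0.0667 (adjusted p 0.00862), beside 8.41% of genes lower. With NDA 2 others were called higher, beside 31.5%. With NEDD 2 were called higher, beside 24.7% of genes. With PCNB 1 was, beside 14.6%, Jak2 at 0.23 ± 0.126 (adjusted p 0.0467). That p belongs to the deposited scale, on which the median of all tested genes was higher by 0.148 with PCNB. This shift is not part of the 0.23. Of 10 tested targets and feedback genes, 3 were lower with 2,3-benzofuran, beside 7.58% of all genes. They were the feedback inhibitor Socs3 at -1.53 ± 0.429 (adjusted p 0.0176), and the binding protein genes Igfbp2 at -0.89 ± 0.129 (adjusted p 0.000316) and Igfals at -0.65 ± 0.153 (adjusted p 0.0127). Socs2, a feedback inhibitor that growth hormone induces, was called with NEDD only at 1.48 ± 0.604 (adjusted p 0.0497), with overlapping groups, and differed widely within groups, with 7.90, 6.53 and 5.73 in feed controls. With NDA 1 target was higher, beside 31.5% of genes, and 1 lower, beside 8.41%, and with PCNB none was called.

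Of 16 further regulators of sex-biased genes tested, 2 were higher with 2,3-benzofuran, beside 24.8% of all genes, the estrogen receptor Esr1 at 0.35 ± 0.0967 (limma, adjusted p 0.00199) and the pioneer factor Foxa1 at 0.40 ± 0.164 (adjusted p 0.0236). With NEDD 6 were higher, beside 24.7% of all genes, among them the nuclear receptor Rxra at 0.49 ± 0.113 (adjusted p 0.00155), Cebpb at 0.92 ± 0.212 (adjusted p 0.00252) and the corepressor Trim24 at 0.71 ± 0.194 (adjusted p 0.00481). With NDA 1 was higher, beside 31.5%, and with PCNB 2 were, beside 14.6%. None of the 16 was called lower in these comparisons.

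Clock genes differed between the same groups, and Elovl3 and Cyp7b1 are known to follow the day cycle in mouse liver. Of 15 tested, 5 were higher with 2,3-benzofuran, beside 24.8% of all genes, and 3 lower, beside 7.58%. With NEDD 7 were higher, beside 24.7% of all genes, and 3 lower, beside 4.37%, whereas none was called with NDA or PCNB. Signals of Dbp, a clock output gene, were 4.59, 4.33 and 5.15 in 2,3-benzofuran livers, against 5.40, 10.08 and 10.33 in corn oil livers. They were 9.45, 10.10 and 10.23 in NEDD livers, against 4.00, 4.11 and 7.53 in feed control livers. The part of the clock in the members' changes was not tested beyond the fit with its index. NEDD livers did not overlap with the other feed groups in that index or in the RNA integrity number. Fits with either therefore cannot separate it from NEDD. The index was -1.54, -1.45 and -0.609 in 2,3-benzofuran livers, against -0.632, 2.11 and 2.28 in corn oil livers. These overlapped only between animals 10 and 22, so the fit separates the index from 2,3-benzofuran poorly.

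The genes most like the members over the 18 arrays are named for the 4 with the widest range of group means. Cyp4a12a was most like Ssr3 (Pearson r = 0.976), Asns (r = 0.975) and Psat1 (r = 0.972). The rank correlations were lower, with Spearman rho of 0.748, 0.641 and 0.325, and Cyp4a12a lay under the array median on the 15 arrays outside the 2,3-benzofuran group. Cyp2d9 was most like Slc30a7 (r = 0.97), Mmgt1 (r = 0.943) and Atr (r = 0.939), and Elovl3 most like Abce1 (r = 0.885), Fpgs (r = 0.874) and Ugt2b5 (r = 0.871). For Hao2 they were Sult1c2 (r = 0.892), Slc22a27 (r = 0.855) and Agt (r = 0.848). The arrays share 6 group means, so these values are descriptions with no test.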

How the data were processed

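Liver RNA of 18 mice was hybridized to 1 Affymetrix mouse array each. The deposited table holds log2 signals made by the authors, and how they corrected, normalized and summarised them was not given in the sources used here. Of 45101 probe sets, 64 are controls, 34945 name 1 gene in the platform annotation, 932 several and 9160 none. Probe sets above their array median on at least 3 arrays were kept, and the brightest stood for its gene.

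The 18 arrays entered a single limma model (version 3.58.1, R 4.3.3) with a mean for each group (empirical Bayes with a trend, 12 residual degrees of freedom, Benjamini-Hochberg adjustment over 12169 genes) and was tested on simulated data. A gene under its array medians in a whole group counts as not above background, and its fold is then a bound against those medians. All members are named. From each of 14 gene lists up to 4 called genes per comparison with the largest t could be named, and the text gives some of these. Dbp, Socs2 in the controls, Gstp1 with NEDD and the signals of Fmo2 are given beside the rule and were chosen after their values were seen. The members and lists were chosen with earlier results of these data known. Animals are separate per the labels. Alternatives covered scaling, filters, probe sets, covariates, controls and single arrays. Promoters come from RefSeq (GRCm38.p6). Plots used Python 3.11.15 and matplotlib 3.10.9.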

Additional observations from a re-analysis of the deposited data

Results flagged for a closer look

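The following changes with 2,3-benzofuran against corn oil differed from the change of the same gene with a feed chemical against feed control, by limma's test of the difference of the effects (log2, deposited scale, 3 animals per group). Against NDA, Cyp4a12a differed by 4.17 ± 0.234 (adjusted p 3.76e-09), Elovl3 by 2.74 ± 0.523 (adjusted p 0.0162), Cyp2d9 by 1.46 ± 0.322 (adjusted p 0.0355), Cyp7b1 by 1.14 ± 0.258 (adjusted p 0.0394) and Nipal1 by -1.56 ± 0.238 (adjusted p 0.00202). Compared with NEDD, the differences were 4.59 ± 0.523 for Elovl3 (adjusted p 3.47e-05), 4.50 ± 0.234 for Cyp4a12a (adjusted p 1.97e-09), 2.21 ± 0.322 for Cyp2d9 (adjusted p 0.00052) and 1.72 ± 0.258 for Cyp7b1 (adjusted p 0.000712). On the lower side, Hao2 differed from NEDD by -3.79 ± 0.674 (adjusted p 0.00293), Prom1 by -3.63 ± 0.731 (adjusted p 0.00688) and Nipal1 by -2.06 ± 0.238 (adjusted p 4.05e-05). Against PCNB the values were 4.84 ± 0.234 for Cyp4a12a (adjusted p 5.51e-10), 3.17 ± 0.322 for Cyp2d9 (adjusted p 8.49e-06), 2.60 ± 0.523 for Elovl3 (adjusted p 0.00799), -3.06 ± 0.674 for Hao2 (adjusted p 0.016) and -1.50 ± 0.238 for Nipal1 (adjusted p 0.00123). Outside the 2,3-benzofuran group Cyp4a12a lay under the array medians on every array, and it passed the filter through 2,3-benzofuran alone. Its differences are therefore measured values with no exact size, and their p-values describe a gene that had to differ. The Cyp7b1 call against NDA was lost in 12 of 18 fits that left out 1 array and under 5 other settings (adjusted p up to 0.564), and that of Cyp2d9 in 7 and under 6 (adjusted p up to 0.344). With the clock index in the model, Elovl3, Cyp2d9, Cyp7b1, Hao2 and Prom1 were not called against NEDD (adjusted p 0.0619, 0.178, 0.335, 0.35 and 0.438), nor Elovl3 against NDA or PCNB (0.0841 and 0.0584) or Hao2 against PCNB (0.0871). These tests hold a different control group on each side, and with feed controls for all chemicals 1.06 remained for Elovl3 against NDA (adjusted p 0.151) and -0.031 for Nipal1 (adjusted p 0.968).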

How the results depend on the processing

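No paired analysis was possible because animal numbers are unique and no groups share them. Of the members' changes against controls, 607 values under other settings and 859 with 1 array left out kept their direction and side of the threshold, or stayed uncalled. A call was lost in 57 and 33 values and gained in 17 and 8. The causes were not tested. The count with NDA (5) was 3 with a stricter filter, the mean of all probe sets, no probe sets of shared sequence, a fit of the compared groups alone, or a threshold of 0.01, and 3 to 5 with 1 array left out (3 without NDA animal 2). With 2,3-benzofuran (6) it was 6 to 7 with 1 array left out. Cyp7b1 and Prom1 were not called there with the clock index in the model. Against feed controls the same 2 genes were not called, whereas Hsd3b5, Cux2 and Nipal1 were. The 5 arrays of highest 18S signal were NEDD animals 12 and 14, 2,3-benzofuran animals 6 and 10 and NDA animal 4. Without them 2,3-benzofuran animal 8 and NEDD animal 15 stand alone in their groups. Counts that involve these groups are therefore not given for that fit. With NEDD (6) it was 1 with the RNA integrity number, 2 with the clock index and 4 to 6 with 1 array left out. With PCNB (4) it was 2 with pooled controls, 2 without those 5 arrays, 1 in a fit of the compared groups alone, 1 at a threshold of 0.01 and 2 to 4 with 1 array left out. Between controls (1) it was 2 with array weights and 1 to 2 with 1 array left out. Of the tests between chemicals, those of Cyp4a12a included, 25 were called. This count was 12 with the RNA integrity number, 11 with the clock index and 22 to 27 with 1 array left out. Cux2 turned to 0.94 with NEDD (adjusted p 0.00332) and 0.44 with PCNB (adjusted p 0.0955) as the mean of its probe sets. Read from 1447500_at, an alternative added after the data were seen, it was 0.040 with NDA (adjusted p 0.931), 1.83 with NEDD and 1.34 with PCNB, and from 1450181_at 0.032 (adjusted p 0.929), 1.18 and 0.46 (adjusted p 0.201). Against feed controls, Nipal1 turned to 1.26 with 2,3-benzofuran (adjusted p 3.12e-05) and to 0.024 for 2,3-benzofuran minus PCNB (adjusted p 0.961). Over all genes, counts ran from 2587 to 5312 with NDA (4859 as reported), 886 to 5450 with 2,3-benzofuran (3936), 352 to 3689 with NEDD (3536), 400 to 2674 with PCNB (2249) and 3 to 83 between controls (15). Signal over background limits Cyp4a12a outside the 2,3-benzofuran group and Hsd3b5 with NDA, NEDD and 2,3-benzofuran.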

Other observations

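Markers of hepatocytes and of other cells were called in some groups. Of 10 hepatocyte markers, 2 fell with 2,3-benzofuran, and 1 rose and 1 fell with NDA. Over all genes, 7.58% were called lower with 2,3-benzofuran. With NDA 31.5% were called higher and 8.41% lower, with NEDD 24.7% and 4.37%, and with PCNB 14.6% and 3.87%. Of 10 macrophage and Kupffer cell markers, 3 fell with 2,3-benzofuran, among them Csf1r, the receptor of a macrophage growth factor, by -0.67 ± 0.145 (limma, adjusted p 0.00747), and 2 fell with NDA. The mean log2 signal over the 10 was 7.18 to 7.59 in 2,3-benzofuran livers, against 7.64 to 8.01 in corn oil livers. Of 10 stellate cell markers, 3 fell with 2,3-benzofuran, with Reln at -0.56 ± 0.118 (adjusted p 0.00802) and Ecm1 at -0.51 ± 0.107 (adjusted p 0.00868). Their mean was 6.92 to 7.15 in 2,3-benzofuran livers, against 7.27 to 7.45 in corn oil livers. Of 10 endothelial markers 2 fell with 2,3-benzofuran, Stab2 by -0.69 ± 0.178 (adjusted p 0.0187) and Ptprb by -0.42 ± 0.107 (adjusted p 0.0346). With NDA 1 endothelial marker fell and 1 rose. With NEDD 2 endothelial markers rose and 2 stellate markers fell, and with PCNB 2 stellate markers rose. Among 9 lymphocyte markers measured, 3 were tested and none was called. Their part in the members' changes was not tested.

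Genes known to respond to fasting were followed as well. Of 9 tested, 2 fell with 2,3-benzofuran, beside 7.58% of all genes. They were the gluconeogenic gene Pck1 at -0.74 ± 0.163 (limma, adjusted p 0.00713) and the fatty acid hydroxylase gene Cyp4a14 at -1.04 ± 0.285 (adjusted p 0.0193). Ppargc1a, a coactivator of the fasting response, rose with NEDD by 1.68 ± 0.357 (adjusted p 0.00245) and with NDA by 1.54 ± 0.357 (adjusted p 0.00164). With NEDD 3 of the 9 were higher, beside 24.7% of all genes, and 1 lower, beside 4.37%. With PCNB 1 was lower, beside 3.87%. The 3 Y-linked genes measured lay under the array median on every array, with probe set signals of 2.30 to 3.54.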
